A study of Mus musculus with 9 samples.

Results

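The 10 genes described here encode insulin-like growth factor (IGF) and insulin signalling components: the ligands Igf1 and Igf2, the receptors Igf1r, Insr and Igf2r, the receptor substrates Irs1 and Irs2, and the binding proteins Igfbp3, Igfbp4 and Igfbp5. They were chosen by gene symbol, and all 10 of the 10 were found among the 13192 named genes of the deposited count table. RNA was sequenced from the apex of the heart of C57BL/6J males. At 10 weeks of age the right gastrocnemius, a calf muscle, of every mouse was injected with 1e+11 particles of an adeno-associated virus (AAV), and hearts were taken 12 weeks later. The 4 AAV-Null samples received the control vector, and the 5 AAV-Osm samples received a vector carrying oncostatin M, a cytokine of the interleukin-6 family. The labels speak of 5 samples per group as submitted, but the count table holds 4 AAV-Null libraries. The promoter that drives the transgene is not given in the sources used here, and no value for Osm itself was analysed here, which leaves the labels unchecked by the delivered transcript.

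Igf1 and Igf2 are secreted growth factors that act on the tyrosine kinase receptor encoded by Igf1r, and insulin acts on the related receptor encoded by Insr. Both receptors pass the signal to the docking proteins encoded by Irs1 and Irs2, and from there to PI3 kinase and AKT, which in heart muscle promote glucose uptake and growth and keep FoxO transcription factors out of the nucleus. Igf2r, by contrast, takes Igf2 into the cell for breakdown and sorts lysosomal enzymes. The Igfbp proteins bind the IGFs outside the cell and control how much ligand reaches the receptor.

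Total counts ran from 11841106 to 30625134 per library. Whether each library came from a different mouse is not stated in the labels, and p-values rest on the spread among the 9 libraries, which may be technical. In pairs of libraries from the same group, a chi-square statistic over genes ran from 6.52 to 98.1 per degree of freedom and 0 pairs were identical, so each library was counted as 1 sample. Pairs across groups ran from 17.3 (AAV-Null 1 and AAV-Osm 4) to 132 (AAV-Null 4 and AAV-Osm 5), so same-group pairs were not always the closer. Markers of heart muscle were as the tissue label has it: 8 of 8 cardiomyocyte markers were detected, summing to 70903 to 91335 CPM in the 4 AAV-Null and 68415 to 91642 CPM in the 5 AAV-Osm libraries (CPM, counts scaled to a fixed library total). Macrophage and fibroblast markers, 8 of 8 detected for each, were highest in AAV-Null 4 (854 CPM against 381 to 571 in the other libraries, and 2291 CPM against 1086 to 1887). The 6 of 6 epicardial and mesothelial markers summed to between 44.8 and 136 CPM in AAV-Null and between 9.97 and 46.7 CPM in AAV-Osm libraries, and 6 of 6 liver-type markers to between 2.56 and 127 CPM and between 0.981 and 39.9 CPM. In tissue RNA, fewer cells of a type and less RNA per cell cannot be told apart. Where these sums move with a gene below, their part in the result was not tested.

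None of the 10 genes passed the test for a difference between the groups. In edgeR's quasi-likelihood test, 0 of the 10 had an adjusted p under 0.05, where 0.121% of all genes did (0.0834% higher and 0.0379% lower in AAV-Osm). DESeq2, limma-voom and limma-voom with quality weights also called 0 of the 10. The smallest adjusted p of these came from limma-voom with quality weights, at 0.0671 for Igfbp5 and 0.0750 for Insr. That fit called 170 genes over all. At an unadjusted p under 0.05, edgeR gave 4 of the 10 (5.97% of all genes): Insr and Igfbp3 with higher means in AAV-Osm, and Igf1 and Igfbp5 with lower means (2.89% of all genes were higher and 3.09% lower at that level). The 10 genes were chosen with earlier results of these data known, so this count is a description and not a test. Insr was the only member whose groups did not overlap (2.28% of all genes, 1.05% higher and 1.23% lower). Log2 fold changes, given throughout as AAV-Osm over AAV-Null, were positive for 6 genes and negative for 4, with a median of 0.05 beside 0.01 over all genes.

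**Figure D1:**
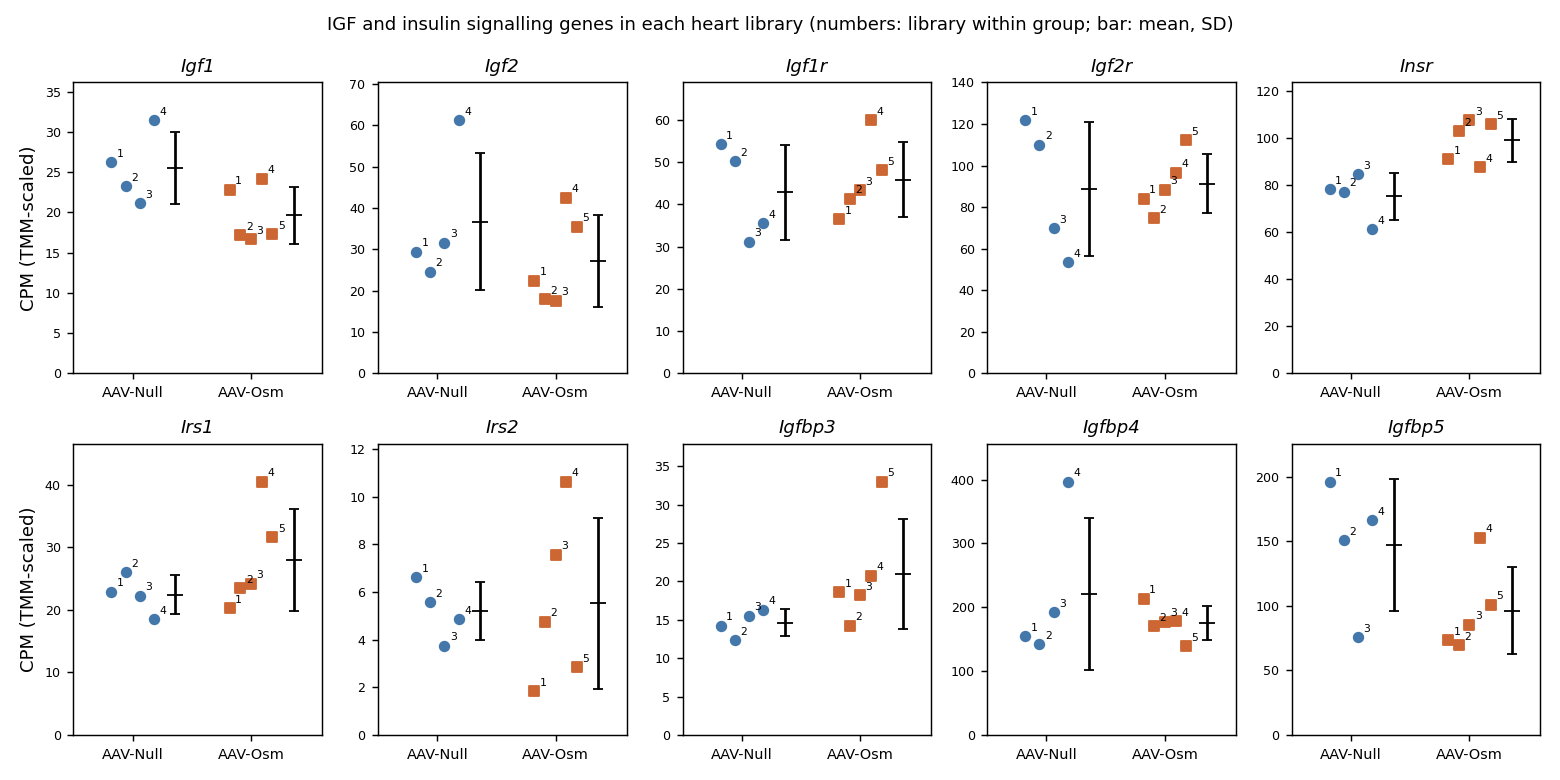
CPM of each gene (y axis, from 0, with its own scale in each panel) in the 4 AAV-Null (circles) and 5 AAV-Osm (squares) libraries, numbered within the group, with the mean and SD beside each group. Insr is the only panel in which the groups do not overlap, and AAV-Null 4 is highest for Igf1, Igf2 and Igfbp4.

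Promoter sequence from RefSeq (build GRCm38.p6) was at hand for 9 of the 10 genes, Insr being the missing entry. The 250 bases before the start site that RefSeq gives, written 5′ to 3′ on the gene's strand, are shown for the 3 matched genes with an unadjusted p under 0.05, since these had the largest differences for their spread, and for Igfbp4, the most abundant. Capitals mark a match to 1 of 4 motifs read on both strands: the STAT motif TTCNNNGAA, the FoxO motif GTAAACA or its reverse TGTTTAC, the E-box CACGTG and the TATA box TATAAA (this last on the gene's strand only). The windows lie at chr10:87860861-87861110 on the plus strand (Igf1), chr11:7213924-7214173 on the minus strand (Igfbp3), chr1:72874866-72875115 on the minus strand (Igfbp5) and chr11:99040994-99041243 on the plus strand (Igfbp4). The Igf1 window lies inside the span of Igf1 in the count table, which begins at 87859056, so it stands before an internal start site and not before the first one.
Igf1: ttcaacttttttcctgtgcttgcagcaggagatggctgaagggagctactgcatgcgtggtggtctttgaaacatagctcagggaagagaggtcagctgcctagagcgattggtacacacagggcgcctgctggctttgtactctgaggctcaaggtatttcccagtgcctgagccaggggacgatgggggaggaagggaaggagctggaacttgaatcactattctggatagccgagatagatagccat
Igfbp3: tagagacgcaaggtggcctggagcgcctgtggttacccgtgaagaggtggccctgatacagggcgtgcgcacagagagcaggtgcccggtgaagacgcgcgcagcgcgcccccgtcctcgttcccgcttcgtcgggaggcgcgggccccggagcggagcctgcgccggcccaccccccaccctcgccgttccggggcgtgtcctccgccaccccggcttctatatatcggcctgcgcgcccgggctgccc
Igfbp5: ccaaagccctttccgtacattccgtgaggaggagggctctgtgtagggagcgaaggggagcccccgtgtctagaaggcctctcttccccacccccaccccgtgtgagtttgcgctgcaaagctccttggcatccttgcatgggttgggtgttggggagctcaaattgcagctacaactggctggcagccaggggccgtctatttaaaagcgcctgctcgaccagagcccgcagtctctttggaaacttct
Igfbp4: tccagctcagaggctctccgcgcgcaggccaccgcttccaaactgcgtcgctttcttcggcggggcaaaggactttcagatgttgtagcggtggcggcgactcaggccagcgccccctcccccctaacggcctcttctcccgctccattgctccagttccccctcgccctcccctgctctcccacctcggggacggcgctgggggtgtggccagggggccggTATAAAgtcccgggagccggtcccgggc

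The Igf1, Igfbp3 and Igfbp5 windows held none of the 4 motifs, and the Igfbp4 window held 1 TATA box (in 7.59% of promoter windows), 28 bases before the start site. GC content was 52.8% for Igf1, 73.2% for Igfbp3, 58.8% for Igfbp5 and 69.2% for Igfbp4. Over the 12 windows of the 9 genes (Igf2 has 4), 0 held the STAT motif, which 7.02% of 32851 promoter windows hold, and 0 held the FoxO motif, which 3.17% hold. The E-box, present in 6.02% of windows, stood in those of Igf2r, Irs1 and Irs2. A missing match says only that these letters are not in the window.

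Levels were compared between genes as RPKM, which divides the scaled count by the gene's summed exon length in kilobases. Igfbp4 was the most abundant, with a mean of 94.8 RPKM over the 9 libraries (67.2 to 192), followed by Igfbp5 at 20.3 RPKM (11.9 to 33.5). Igf2r at 10.1, Insr at 9.46, Igfbp3 at 7.42, Igf2 at 7.42, Igf1r at 3.71, Igf1 at 2.85, Irs1 at 2.78 and Irs2 at 1.34 RPKM made up the rest of the order. The ranges of Igfbp4 and Igfbp5 did not overlap, while those of the other 8 of 9 neighbouring pairs did. Insr transcripts were above those of Igf1r in each of the 9 libraries, with Igf1r at 0.287 to 0.541 of the Insr level in AAV-Null and 0.314 to 0.534 in AAV-Osm. Irs1 was likewise above Irs2 throughout, at ratios of 1.52 to 2.60 in AAV-Null and 1.40 to 4.85 in AAV-Osm.

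**Figure D2:**
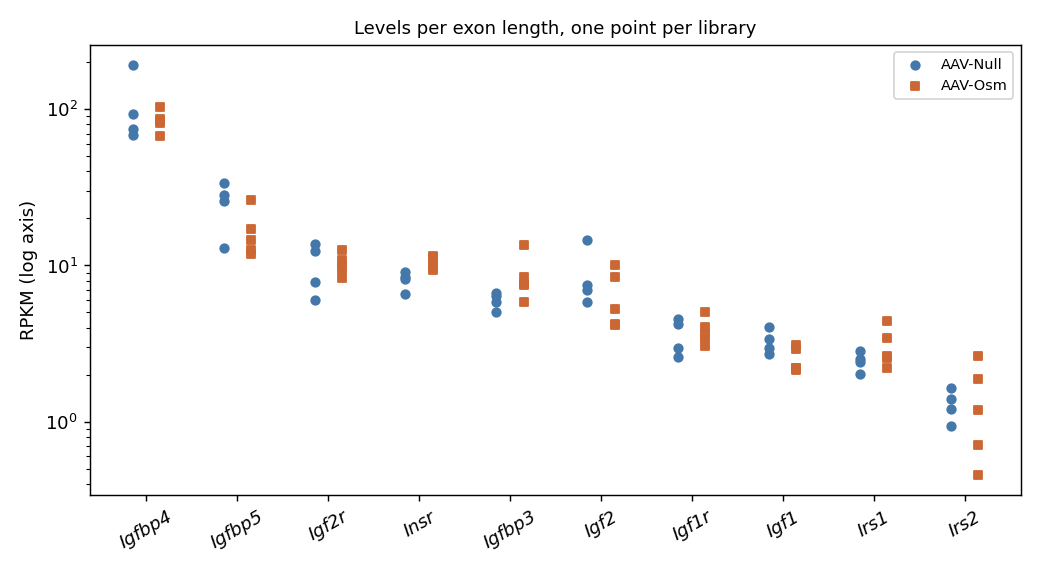
RPKM on a log axis for each gene, ordered by its mean over the 9 libraries, with circles for AAV-Null and squares for AAV-Osm. Igfbp4 (67.2 to 192 RPKM) stands apart from all other genes, and Irs2 has the widest spread relative to its level.

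Of the ligands, Igf1 (chromosome 10, 87859056 to 87937047, plus strand, mm10) was at 26.3, 23.3, 21.2 and 31.4 CPM in AAV-Null 1 to 4. In AAV-Osm 1 to 5 it stood at 22.8, 17.2, 16.7, 24.2 and 17.3 CPM. AAV-Osm 2, 3 and 5 lay below every AAV-Null library, and AAV-Osm 1 and 4 lay among them. The group means were 25.5 ± 4.46 CPM (SD, n = 4) and 19.6 ± 3.59 CPM (SD, n = 5), or -0.38 on the log2 scale (SE 0.17, 95% interval -0.74 to -0.02, adjusted p in edgeR = 0.796). Its sign was the same in 20 of 20 alternative analyses, at -0.46 to -0.22. Some of these alternatives return the main fold change unchanged. Summed liver-type markers were at 2.56, 16.5, 127 and 64.2 CPM in AAV-Null 1 to 4 and at 22.2, 0.981, 39.9, 25.1 and 8.83 CPM in AAV-Osm 1 to 5. Their part in the Igf1 level was not tested.

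Igf2 (chromosome 7, 142650768 to 142661035, minus strand), an imprinted gene best known from fetal growth, was at 29.4, 24.6, 31.7 and 61.2 CPM in AAV-Null 1 to 4 and at 22.4, 17.98, 17.6, 42.5 and 35.5 CPM in AAV-Osm 1 to 5. The groups overlapped, and AAV-Null 4 was the highest of the 9 libraries. On the log2 scale the difference was -0.44 (SE 0.31, 95% interval -1.10 to 0.23, adjusted p in edgeR = 0.934), and it was -0.08 without AAV-Null 4. In the GENCODE M21 annotation a second coding model, Gm49394, shares 3596 exon bases with Igf2 on the same strand. Gm49394 is not among the named genes of the count table, and how reads shared by such models were counted is not given. Per exon length, Igf1 stood at between 0.278 and 0.512 of the Igf2 level in AAV-Null and between 0.264 and 0.553 in AAV-Osm.

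Of the receptors, Insr (chromosome 8, 3150922 to 3279617, minus strand) differed most for its spread. It was at 78.4, 77.2, 84.6 and 61.2 CPM in AAV-Null 1 to 4 and at 90.9, 103, 108, 87.6 and 106 CPM in AAV-Osm 1 to 5. Every AAV-Osm library lay above every AAV-Null library, although the gap between AAV-Null 3 and AAV-Osm 4 was small. The means were 75.3 ± 9.98 CPM (SD, n = 4) and 99.0 ± 9.11 CPM (SD, n = 5), 1.31-fold apart. Its log2 difference of 0.39 (SE 0.13, 95% interval 0.10 to 0.68) had an adjusted p in edgeR = 0.622. By its unadjusted p, Insr ranked 240 of the 13192 genes. Scaled by total counts alone, the groups still did not overlap, at 56.5 to 84.1 CPM and 85.0 to 117 CPM.

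Igf1r (chromosome 7, 67952257 to 68233667, plus strand) was at 54.3, 50.3, 31.1 and 35.6 CPM in AAV-Null 1 to 4 and at 36.5, 41.3, 43.3, 59.9 and 48.1 CPM in AAV-Osm 1 to 5. The groups overlapped almost entirely, with AAV-Null 1 and 2 well above AAV-Null 3 and 4. Igf1r differed by 0.10 on the log2 scale (SE 0.19, 95% interval -0.32 to 0.51, adjusted p in edgeR = 0.981), an interval that still holds the 0.39 measured for Insr. Igf2r (chromosome 17, 12682406 to 12769706, minus strand) showed the same split within AAV-Null, at 122, 110.1, 69.8 and 53.6 CPM, against 84.1, 74.6, 88.4, 96.6 and 112 CPM in AAV-Osm 1 to 5. AAV-Osm libraries lay between the high and the low AAV-Null pair in all but 1 case, AAV-Osm 5, which was just above AAV-Null 2. Igf2r differed by 0.04 on the log2 scale (SE 0.22, 95% interval -0.44 to 0.52, adjusted p in edgeR = 0.995), and by -0.35 without AAV-Null 3 and AAV-Null 4.

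Of the receptor substrates, Irs1 (chromosome 1, 82233105 to 82291439, minus strand) was at 22.9, 26.0, 22.2 and 18.5 CPM in AAV-Null 1 to 4 and at 20.2, 23.5, 24.2, 40.5 and 31.6 CPM in AAV-Osm 1 to 5. AAV-Osm 4 and 5 lay above all AAV-Null libraries and the other 3 lay within their range. The difference was 0.31 on the log2 scale (SE 0.20, 95% interval -0.11 to 0.74, adjusted p in edgeR = 0.923), and 0.15 without AAV-Osm 4. A coding model on the opposite strand, Gm9747, shares 2822 exon bases with Irs1, and since the strand setting is not given, reads from it could not be told apart.

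Irs2 (chromosome 8, 10986964 to 11008430, minus strand), which in other tissues is known to be raised by FoxO factors when insulin is low, was the least abundant, with 46 to 135 counts per library. It was at 6.62, 5.56, 3.75 and 4.84 CPM in AAV-Null 1 to 4. In AAV-Osm 1 to 5 it was at 1.83, 4.74, 7.56, 10.6 and 2.85 CPM, so that both the lowest and the highest of the 9 values were in AAV-Osm. The means were 5.19 ± 1.21 CPM (SD, n = 4) and 5.52 ± 3.59 CPM (SD, n = 5). Its log2 fold change, 0.06, had the widest interval of the 10 genes, -0.82 to 0.94 (SE 0.41, adjusted p in edgeR = 0.997).

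Of the binding proteins, Igfbp3 (chromosome 11, 7206091 to 7213923, minus strand), the main IGF carrier of blood plasma, was at 14.2, 12.3, 15.6 and 16.3 CPM in AAV-Null 1 to 4 and at 18.6, 14.2, 18.2, 20.7 and 33.0 CPM in AAV-Osm 1 to 5. AAV-Osm 5 was the highest by a wide margin, and AAV-Osm 2 alone lay within the AAV-Null range. The means were 14.6 ± 1.76 CPM (SD, n = 4) and 20.9 ± 7.14 CPM (SD, n = 5), 0.52 apart on the log2 scale (SE 0.22, 95% interval 0.06 to 0.99, adjusted p in edgeR = 0.779). Without AAV-Osm 5 it was 0.30.

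Igfbp5 (chromosome 1, 72858065 to 72874865, minus strand), a binding protein that attaches to extracellular matrix, had the largest difference in size. It was at 196, 151, 75.5 and 167 CPM in AAV-Null 1 to 4. In AAV-Osm 1 to 5 it was at 73.2, 69.4, 85.6, 153 and 101 CPM. AAV-Null 3 lay among the low AAV-Osm libraries and AAV-Osm 4 among the high AAV-Null libraries. The means were 147 ± 51.5 CPM (SD, n = 4) and 96.4 ± 33.9 CPM (SD, n = 5), a log2 difference of -0.61 (SE 0.27, 95% interval -1.20 to -0.02, adjusted p in edgeR = 0.802). It was negative in 20 of 20 alternatives, at -0.86 to -0.44, some of which return the main fold change unchanged. Summed fibroblast markers were at 1608, 1548, 1365 and 2291 CPM in AAV-Null 1 to 4. In AAV-Osm 1 to 5 they were at 1654, 1156, 1086, 1887 and 1307 CPM. AAV-Osm 1 thus had low Igfbp5 beside a fibroblast sum above that of AAV-Null 1. The part of these markers in the Igfbp5 level was not tested.

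Igfbp4 (chromosome 11, 99041260 to 99052643, plus strand), an inhibitory binding protein that is cut by the protease encoded by Pappa, was at 154, 142, 192 and 397 CPM in AAV-Null 1 to 4 and at 214, 169.9, 177, 178 and 139 CPM in AAV-Osm 1 to 5. AAV-Null 4 was far above the other 8 libraries, and it was also the library with the highest macrophage, fibroblast, endothelial and epicardial marker sums. Igfbp4 differed by -0.33 on the log2 scale (SE 0.26, 95% interval -0.90 to 0.24, adjusted p in edgeR = 0.936), and without AAV-Null 4 it turned to 0.11. Of the RPKM summed over these 3 binding proteins, Igfbp4 made up 65.5% to 84.5% in AAV-Null and 68.6% to 83.7% in AAV-Osm libraries. The share of Igfbp3 was 2.94% to 5.67% in AAV-Null and 5.83% to 13.8% in AAV-Osm. The groups did not overlap, but AAV-Null 3 (5.67%) and AAV-Osm 2 (5.83%) lay close together. Its lowest share was in AAV-Null 4, where Igfbp4 was highest. The shares of Igfbp4 and of Igfbp5 overlapped between the groups. These shares are a description without a test, and how often such shares separate for other genes was not counted.

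**Figure D3:**
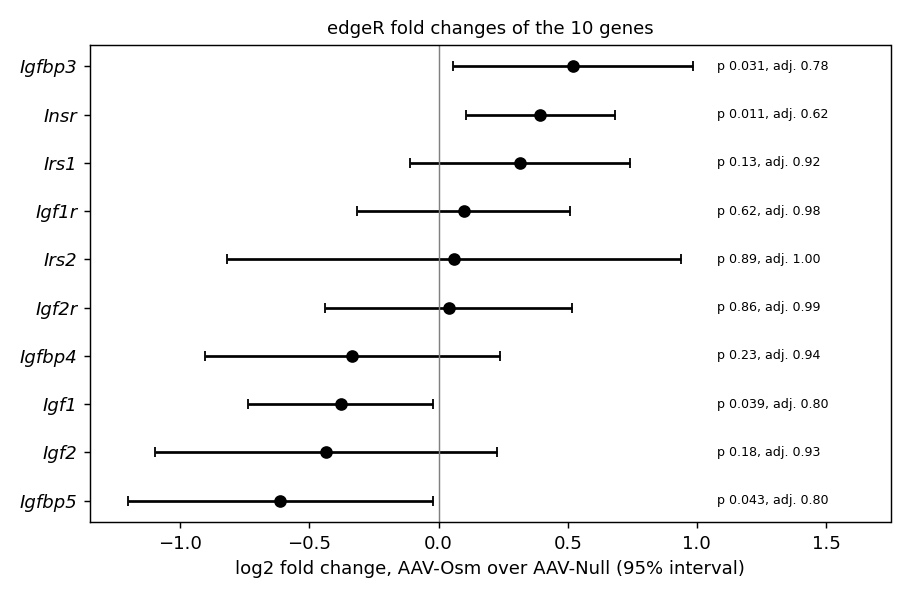
Log2 fold changes (x axis) of the 10 genes from edgeR, ordered by size, with 95% intervals as bars and the unadjusted and adjusted p at the right. Intervals of Igfbp3, Insr, Igf1 and Igfbp5 exclude 0 before adjustment, and the smallest adjusted p is 0.62, for Insr.

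The genes were also compared with each other across the 9 libraries, on the scale of log2 CPM, for all 45 pairs. Igf1 and Insr ran in opposite directions, with Pearson's r = -0.945 (exact permutation p = 0.000482, adjusted over the 45 pairs 0.0217) and Spearman's rho = -0.867 (exact permutation p = 0.00451, adjusted 0.137). AAV-Osm 2, 3 and 5 combined low Igf1 with high Insr, and AAV-Null 4 had the highest Igf1 and the lowest Insr. Without the 2 libraries farthest from the median of Igf1, r was -0.881, and leaving out single libraries gave -0.963 to -0.912. For deviations from the group means r was -0.935 (exact permutation within groups, p = 0.00278, adjusted 0.125), and with total counts as the only scaling it was -0.713 (adjusted 0.198). The pair therefore passed only by Pearson's r over both groups together on the main scale, and not by Spearman's rho on that scale. The other 44 pairs did not pass. Igf2r and Igfbp4 came nearest, with r = -0.860 (exact permutation p = 0.00224, adjusted 0.0505), rho = -0.800 (exact permutation p = 0.0138, adjusted 0.193) and r = -0.737 without the 2 farthest libraries.

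**Figure D4:**
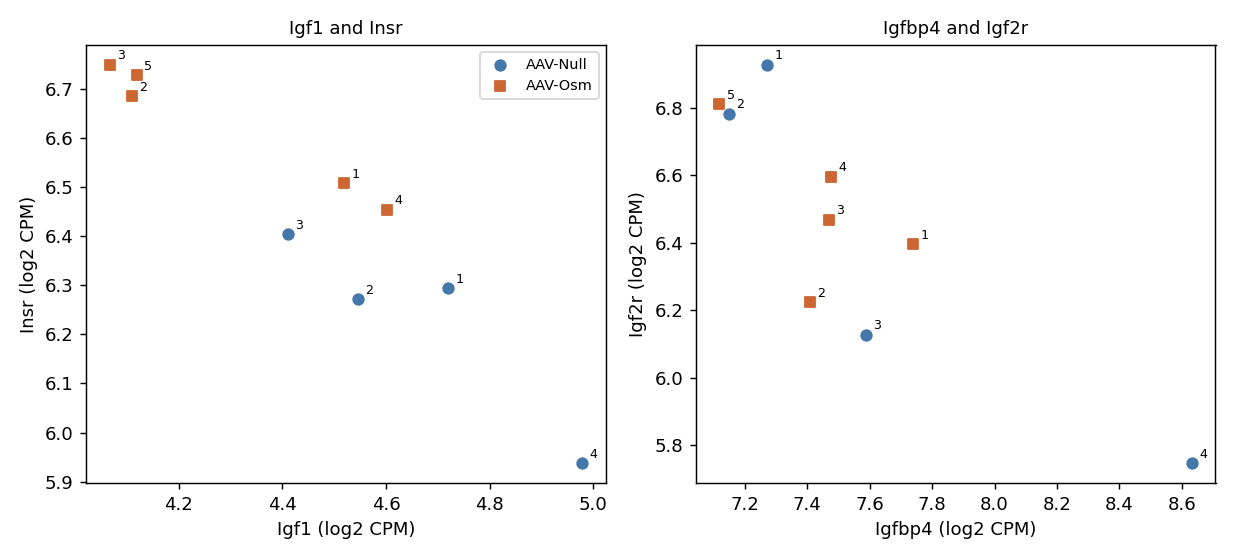
Log2 CPM of Insr against Igf1 (left) and of Igf2r against Igfbp4 (right), 1 point per library, numbered within its group. Libraries with more Igf1 had less Insr (r = -0.945 over 9), and AAV-Null 4 lies at the far lower right of both panels.

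Outside the 10 genes, the pattern most like that of a member was named by Pearson's r over the 9 libraries, as a description. The libraries differed in total counts and in cell type marker sums, and the part of these in r was not tested. For Igfbp5 it was that of Col1a1, a chain of type I collagen (r = 0.985), and for Igfbp4 those of Srpx2 (0.988), Timp2 (0.984) and the macrophage complement gene C1qb (0.983). For Igfbp3 the nearest was Socs3 (0.954), the feedback inhibitor of gp130 cytokine signalling, followed by Dtwd2 (0.953) and Bcl3 (0.918). AAV-Osm 5 was the highest library for both Igfbp3 (33.0 CPM) and Socs3 (15.7 CPM). Each first match is the highest r over all genes outside the members, so a high value was found for each member named here. For Igf1 the nearest was Mxra7 (0.956), followed by Cebpg (0.943) and by Lyve1 (0.940), a marker of lymphatic vessels and some resident macrophages. Elsewhere the nearest was Mgat5b for Insr (0.980), Mbd6 for Igf2r (0.976), Fam134b for Irs1 (0.964), Kif3a for Irs2 (0.971) and Tpm3 for Igf2 (0.935).

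Further components of the pathway were taken from a list of 92 genes by role, of which 84 were tested. In edgeR 0 of the 84 rose and 0 fell, with 3 higher and 3 lower at an unadjusted p under 0.05 (2.89% and 3.09% of all genes), and the median log2 fold change was 0.02 beside 0.01 over all genes. Groups did not overlap for 2 with higher levels, Inpp5k and Slc2a4, and for 1 with lower levels, Pappa (1.05% and 1.23% of all genes). DESeq2 and limma-voom called 0, and limma-voom with quality weights called 1, Inpp5k.

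Among 10 other binding proteins and IGF-releasing proteases, Pappa, the protease that frees IGF from Igfbp4, was at 1.003, 0.865, 0.789 and 1.03 CPM in AAV-Null 1 to 4 and at 0.359, 0.490, 0.705, 0.522 and 0.427 CPM in AAV-Osm 1 to 5. All AAV-Osm libraries lay below all AAV-Null libraries. These levels are low, near the 0.5 CPM that every named gene exceeded in at least 4 libraries. On the log2 scale Pappa differed by -0.89 (SE 0.28, adjusted p in edgeR = 0.575). Igfbp6, which prefers Igf2 as its ligand, was at 122 CPM in AAV-Null 4, 29.8 to 49.6 CPM in the other AAV-Null libraries and 15.7 to 39.0 CPM in AAV-Osm (log2 difference -0.91, SE 0.39, adjusted p in edgeR = 0.796). The high value fell in the library with the highest epicardial marker sum, 136 CPM. That library was also highest for macrophage (854 CPM), fibroblast (2291 CPM) and endothelial (1464 CPM) marker sums, and their part was not tested.

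Among 20 adaptors and receptor inhibitors, the docking protein gene Gab1 differed by 0.50 on the log2 scale (SE 0.20, adjusted p in edgeR = 0.768), with means of 18.4 ± 3.56 and 26.0 ± 6.41 CPM. Socs3, which also restrains insulin receptor signalling, differed by 0.54 (SE 0.22, adjusted p in edgeR = 0.779). Among 20 genes of PI3 kinase, AKT and lipid phosphatases, the smallest p belonged to Inpp5k, a phosphatase that lowers insulin signalling. Inpp5k was at between 18.3 and 23.8 CPM in AAV-Null and between 24.4 and 30.7 CPM in AAV-Osm libraries, without overlap (log2 difference 0.39, SE 0.14, adjusted p in edgeR = 0.660). Akt2, the AKT isoform tied to glucose uptake, differed by 0.28 (SE 0.14, adjusted p in edgeR = 0.866).

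Over 23 direct and indirect targets of AKT the median log2 fold change was 0.08, with Tbc1d4, a brake on glucose transporter traffic, at 0.34 (SE 0.18) and Mtor at 0.22 (SE 0.13). Over 10 genes of the growth hormone axis and insulin processing the fold changes ran from -0.07 to 0.18, Stat5a (0.15, SE 0.14) and Stat5b (0.18, SE 0.17) having the smallest p. Igf2bp2, the 1 tested gene of 3 that encode RNA-binding proteins of Igf2 mRNA, differed by -0.50 (SE 0.22, adjusted p in edgeR = 0.796), from 3.15 ± 0.630 to 2.23 ± 0.405 CPM.

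FoxO factors are the transcription factors that insulin and IGF signalling holds back. Of 28 tested genes commonly given as FoxO targets, 0 rose, 1 fell and 27 did not pass in edgeR, where 0.121% of all genes were called. Log2 fold changes were positive for 23 and negative for 5, with a median of 0.10, beside 6846 positive and 6346 negative and a median of 0.01 over all genes. At an unadjusted p under 0.05, 5 were higher and 1 was lower (2.89% and 3.09% of all genes). Groups did not overlap for 3 with higher levels, Txnip, Fbxo32 and Bcl2l11, and for 1 with lower levels, Cdkn1a (1.05% and 1.23% of all genes). The list was chosen with earlier results of these data known, so its counts are a description and not a test. The gene that fell was Cdkn1a, a cell cycle inhibitor that is also a target of p53. Cdkn1a was at between 46.3 and 69.2 CPM in AAV-Null and between 19.6 and 37.4 CPM in AAV-Osm libraries (log2 difference -1.23, SE 0.19, adjusted p in edgeR = 0.0331). The list had 1 call without AAV-Null 3 and 1 without AAV-Osm 4, and 0 without any of the other 7 libraries in turn, so the call on Cdkn1a was lost there. Txnip, an inhibitor of glucose uptake, was at between 180.3 and 278 CPM in AAV-Null and between 308 and 523 CPM in AAV-Osm libraries, again without overlap (log2 difference 0.93, SE 0.18, adjusted p in edgeR = 0.114), and passed in DESeq2. Both genes respond to several pathways besides insulin.

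**Figure D5:**
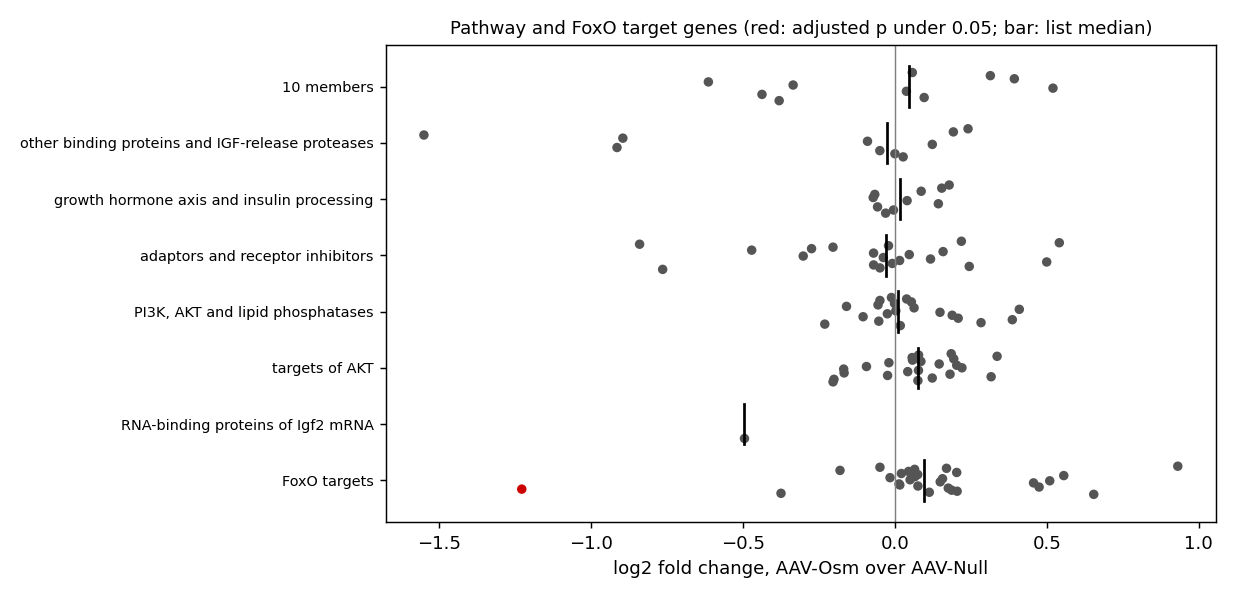
Log2 fold change (x axis) of each tested gene, by role; bars mark list medians and the vertical line marks 0. The single red point is Cdkn1a (-1.23), the 1 gene past the adjusted threshold, and the medians of the lists with 10 or more genes lie between -0.03 and 0.10.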

How the data were processed

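Per the labels' protocols, libraries were made from mRNA with paired reads of 75 bases. The tools named are STAR 2.5.2b, Subread 1.5.1 and featureCounts, and the build mm10, per the submitters' processing notes. Neither annotation nor strand setting is given there. Values were deposited by the authors as raw counts. The table's 4141 blank rows were left out. All 13192 named genes had over 0.5 CPM in at least 4 libraries, and rarer genes were not analysed here.

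The test was edgeR's (4.0.16, in R 4.3.3; TMM scaling, robust two-sided quasi-likelihood F test, group as the only term), adjusted by the Benjamini-Hochberg method over all genes at 0.05; filterByExpr removed 0 genes. SE is the fold change over the root of F. The fit was tested on simulated data. Log2 CPM used a prior count of 2. RPKM used the deposited exon lengths. Alternatives used DESeq2 1.42.0, limma 3.58.1, other scalings and filters, and omitted libraries. Libraries were numbered in accession order and not paired. The labels give no batch.

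The members and lists were chosen with earlier results of these data known. The text names all members and the 2 genes of each role that had the lowest p (and any past the threshold). Of the 3 genes most like each member by r, the first or all 3 are printed. List genes whose groups did not overlap, and a few markers, are named besides. The genes most like Igf1r are not reported here.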

Additional observations from a re-analysis of the deposited data

How the results depend on the processing

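Of 200 refits of single members (10 genes, 20 alternatives each), 0 passed the threshold and 176 kept their direction. For Igf1, Insr, Irs1, Igfbp3 and Igfbp5 all 20 did. The fit without a filter repeated the main fit, since filterByExpr had removed 0 genes. The fit without robust dispersions returned the same fold changes, so the agreement of these alternatives in direction adds nothing. Reversals occurred for Igf2r and Irs2 with total counts only (-0.010 and -0.0067), Irs2 with limma-voom (-0.24), and Igf1r, Igf2r, Irs2 and Igfbp4 with limma-voom and quality weights (-0.14, -0.30, -0.27 and 0.15). With AAV-Null 3 and 4 both left out, the reversed genes were Igf2 (0.0056), Igf1r (-0.19), Igf2r (-0.35), Irs2 (-0.18) and Igfbp4 (0.25), and without AAV-Null 4 and AAV-Osm 5 Igf1r (-0.0013), Igf2r (-0.23) and Igfbp4 (0.18). Leaving out single libraries gave -0.029 to 0.23 for Igf1r, -0.14 to 0.23 for Igf2r, -0.31 to 0.30 for Irs2 and -0.50 to 0.11 for Igfbp4. The members' median was -0.21 with quality weights and -0.16 to 0.21 with single libraries left out, lowest without AAV-Osm 4 and highest without AAV-Null 1.

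Over all genes, 16 were called (11 higher, 5 lower), 53 with DESeq2 (24 and 29) and 170 with quality weights (79 and 91). Without AAV-Null 4 and AAV-Osm 5, 3 were lower. Single libraries left out gave 4 to 11 (4 to 7 higher, 0 to 6 lower). The pathway list had 1 call with quality weights. The FoxO list had 2 with DESeq2 (Cdkn1a and Txnip) and 4 with quality weights (Cdkn1a, Txnip, Fbxo32 and Bcl2l11). It had 0 without AAV-Null 4 and AAV-Osm 5, and 0 to 1 without single libraries. Pairs of members past the threshold numbered 0 with deviations from the group means and 0 with total counts only. The cause of these shifts was not tested. No paired analysis was possible because the labels carry no replicate numbers. Irs2 had the fewest counts of the members, 46 to 135 per library.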
